A study of Homo sapiens with 6 samples.

Results

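The fibulins, the fibrillins, elastin and the microfibril protein gene MFAP5 were followed in LX-2 cells, an established cell line derived from human hepatic stellate cells, with and without bone morphogenetic protein 9 (BMP9). The genes were EFEMP1, EFEMP2, FBLN1, FBLN2, FBLN5, FBLN7, FBN1, FBN2, ELN and MFAP5, 10 of 18132 genes on the array. Their measurements were the 37 probe sets that the platform annotation gives to exactly 1 of these genes, of 49293 probe sets without array controls, and 0 probe sets carried a member together with another gene. The family was picked on a measured value, the difference of EFEMP1 between BMP9 and control arrays, which was the most negative of all probe sets. All values of this contrast below are therefore a description, and an adjusted p only states where a probe set stood in the fit over all probe sets.

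The tested samples were 3 LX-2 samples given recombinant human BMP9 at 50 ng/ml for 24 h, and the controls were 3 LX-2 samples kept for the same time at 0 ng/ml. Both groups had first spent 12 h without serum, and the labels name no other agent. Each sample was hybridised to 1 Affymetrix 3′ expression array. The labels call the samples biological replicates without saying whether they came from separate cultures, so the tests take in the spread between these samples, which may be technical.

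Elastic fibres consist of a core of cross-linked elastin on a scaffold of fibrillin microfibrils, and they give tissues their recoil. Fibulins are secreted glycoproteins built from calcium-binding EGF-like modules. Some of them, fibulin-4 (the product of EFEMP2) and fibulin-5 (FBLN5) among them, help to place elastin on the microfibrils and bring in the cross-linking enzymes. Fibrillin microfibrils also hold latent TGF-beta complexes and BMP propeptides in the matrix. In fibrotic liver, stellate cells and portal fibroblasts are the known sources of these proteins.

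The treatment check used 3 genes that BMP signalling is known to raise. SMAD6, an inhibitory SMAD, stood at 9.07, 8.92 and 8.96 on the BMP9 arrays, against 5.80, 6.14 and 5.98 on the control arrays (log2). ID3, an inhibitor of helix-loop-helix factors, averaged 8.84 ± 0.17 with BMP9 and 7.21 ± 0.19 in control (SD, n = 3 each). SMAD6 and ID3 each had 2 of 3 probe sets called higher, and the uncalled one differed by 0.24 in SMAD6 and by 0.41 in ID3. ID1, another inhibitor of that kind, had 1 of 3 probe sets called higher. The called one averaged 6.01 ± 0.22 with BMP9 and 2.80 ± 0.42 in control (SD, n = 3 each), a difference of 3.21. The brightest ID1 probe set was not called (0.14, limma adjusted p = 0.629 over all probe sets), nor was the remaining one (0.32). Over all genes, limma called 0.232% higher and 0.452% lower, so few calls are awaited in a short list of markers. Of 8 stellate cell and fibroblast markers, 0 were called (0 higher and 1 lower at an unadjusted limma p under 0.05). VIM, the vimentin gene, had the smallest p and the largest difference of them, at 11.2 ± 0.054 with BMP9 and 11.6 ± 0.099 in control (SD, n = 3 each). Its groups did not overlap, and the difference was -0.37 (95% interval -0.55 to -0.20, limma adjusted p = 0.0786). The collagen gene COL1A1 averaged 9.79 ± 0.10 with BMP9 and 9.73 ± 0.16 in control (SD, n = 3 each). Limma also called 0 of 4 measured hepatocyte markers (1 higher and 1 lower at an unadjusted p under 0.05), 0 of 4 for cholangiocytes (1 and 0), 0 of 4 for endothelium, 0 of 4 for macrophages and leukocytes and 0 of 3 for smooth muscle (0 and 0 in each of the last 3 lists). The leukocyte gene PTPRC was at 2.37 ± 0.16 with BMP9 and 2.19 ± 0.092 in control, and the epithelial gene EPCAM at 2.26 ± 0.14 and 1.92 ± 0.020 in the same order (SD, n = 3 each). Both were the dimmest of their lists. By mean over the 6 arrays, the brightest there were CSF1R at 5.46 and SOX9 at 4.70. The endothelial gene VWF averaged 5.83 and the hepatocyte gene TTR 5.73. Stellate cell and fibroblast markers ran from 1.96 (LUM) to 11.4 (VIM), with ACTA2 at 3.97, so the levels of the lists overlapped.

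EFEMP1 encodes fibulin-3, a short fibulin of basement membranes and elastic tissue. Its brightest probe set, 11748659_a_at, gave 4.61, 4.16 and 4.11 on the BMP9 arrays, against 6.44, 6.51 and 6.53 on the control arrays (log2). All BMP9 values lay below all control values, and the spread was wider with BMP9 (4.29 ± 0.28) than in control (6.49 ± 0.047, SD, n = 3 each). The difference was -2.20 (SE 0.12, 95% interval -2.47 to -1.93), a level 4.60-fold lower, with a limma adjusted p of 1.70e-05 over all probe sets. Without any single array it stayed between -2.36 and -2.11. On RNA pooled from many cells, fewer cells with the transcript and less of it per cell cannot be told apart.

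The other 3 probe sets of EFEMP1 were dimmer and were not called. Probe set 11749564_a_at stood at 3.43, 3.31 and 3.43 with BMP9 and at 3.65, 3.52 and 3.39 in control, a difference of -0.13 (95% interval -0.33 to 0.064). Probe set 11758108_s_at averaged 2.56 ± 0.13 with BMP9 and 2.54 ± 0.12 in control, and 11715846_at averaged 2.19 ± 0.023 with BMP9 and 2.20 ± 0.050 in control (SD, n = 3 each). The last of these was the only EFEMP1 probe set whose design sequence is a RefSeq transcript, and the one that fell was designed on another cDNA sequence. The table holds no detection calls. The array's own background probe sets, whose 25-base probes match no human transcript, gave 1.83 to 2.43 where 10 to 14 of the bases were G or C. Their values climbed with that number, to 2.83 to 2.89 at 15 bases, 4.63 to 4.73 at 18 and 9.76 to 10.1 at 25. Of the 4 EFEMP1 probe sets, 11715846_at lay under 2.43 on every array. The base composition of the member probes is not given in the sources used here, so for probes rich in G and C the background may lie higher, and the BMP9 level of 4.29 in 11748659_a_at is not known to be above it. Averaging the 4 probe sets gave a difference of -0.58 (limma adjusted p = 0.00585 over all genes). Which EFEMP1 transcripts each probe set detects was not tested.

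**Figure D1:**
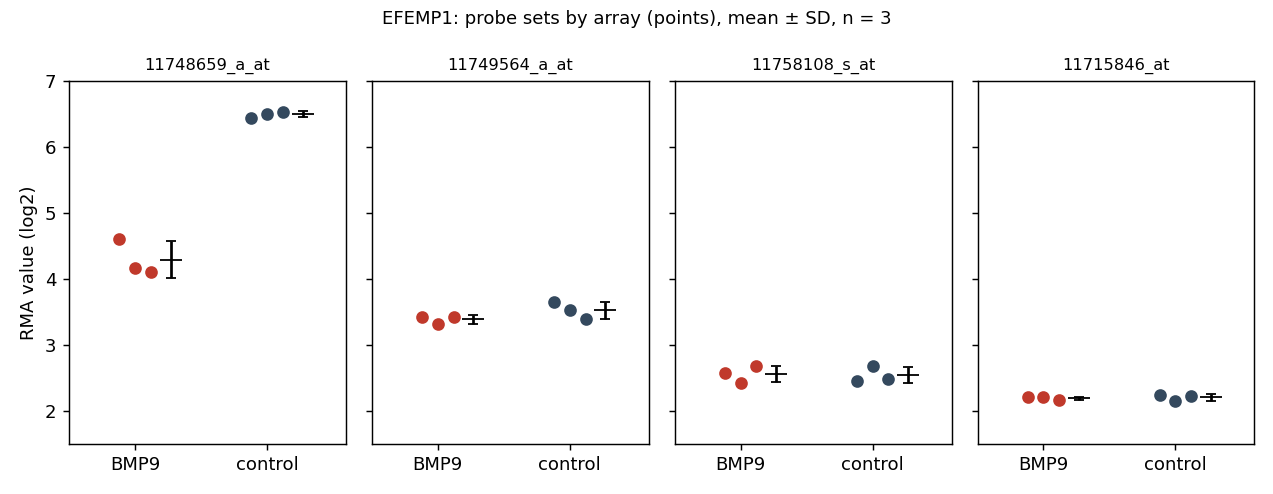
RMA values (log2, y axis) of the 4 EFEMP1 probe sets on the 3 BMP9 and 3 control arrays (points), with the mean ± SD beside them. Only in 11748659_a_at do the groups stand apart, at 4.29 with BMP9 and 6.49 in control.

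EFEMP2 encodes fibulin-4, which in mice is required for elastic fibre assembly. On the deposited scale it was the only member with a probe set called higher, and its 3 probe sets all had positive differences. Probe set 11750280_x_at gave 6.82, 6.66 and 6.84 with BMP9, against 6.12, 6.06 and 6.21 in control. The groups did not overlap, and the difference was 0.64 (SE 0.085, 95% interval 0.45 to 0.83), or 1.56-fold, with a limma adjusted p of 0.00808 over all probe sets. Without BMP9 replicate 3 the difference was 0.61 and the call ended (limma adjusted p = 0.0561).

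Probe set 11728352_x_at of EFEMP2 stood at 5.53, 5.76 and 5.84 with BMP9, against 5.43, 5.24 and 5.24 in control. Its groups did not overlap either, and the difference of 0.41 (95% interval 0.19 to 0.63) was not called (limma adjusted p = 0.150). The brightest probe set, 11728351_a_at, gave 7.005, 7.148 and 7.289 with BMP9, against 6.973, 7.058 and 6.796 in control, values that overlapped. Its difference was 0.21 (95% interval -0.016 to 0.43). Both probe sets with non-overlapping groups carry the suffix that marks probes shared with other sequences, and the part of such sequences in these values was not tested. With the 3 probe sets averaged, EFEMP2 was called higher over all genes, by 0.42 (limma adjusted p = 0.0357), whereas its brightest probe set alone was not.

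**Figure D2:**
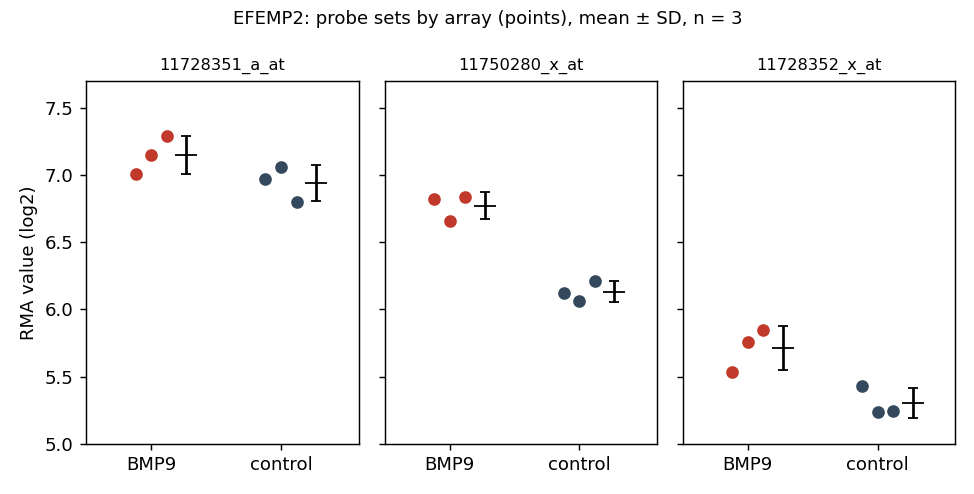
RMA values (log2, y axis) of the 3 EFEMP2 probe sets on the BMP9 and control arrays (points), with the mean ± SD beside them. The means are higher with BMP9 in all 3, by 0.21, 0.64 and 0.41 from left to right, and the groups overlap only in 11728351_a_at.

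The region before the EFEMP2 start is shown because EFEMP2 was the only member with a probe set called higher, and that of FBLN1, a family member with 0 called probe sets, stands beside it. Both are RefSeq sequence of GRCh38.p14, 250 bases ending just before the annotated start, read 5′ to 3′ on the gene's strand. Capitals mark GGCGCC, a palindrome that SMAD1 and SMAD5 are known to bind. EFEMP2 is on the minus strand at chr11:65872801-65873050, and FBLN1 is on the plus strand at chr22:45502633-45502882.
EFEMP2: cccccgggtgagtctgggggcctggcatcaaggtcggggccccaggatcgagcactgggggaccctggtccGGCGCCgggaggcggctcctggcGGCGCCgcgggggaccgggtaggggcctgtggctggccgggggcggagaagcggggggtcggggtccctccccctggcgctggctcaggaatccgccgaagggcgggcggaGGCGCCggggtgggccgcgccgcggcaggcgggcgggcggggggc
FBLN1: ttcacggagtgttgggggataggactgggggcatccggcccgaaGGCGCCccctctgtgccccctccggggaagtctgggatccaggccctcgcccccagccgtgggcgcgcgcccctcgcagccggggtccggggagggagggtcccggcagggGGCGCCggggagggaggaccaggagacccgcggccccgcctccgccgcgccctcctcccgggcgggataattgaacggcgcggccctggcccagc
EFEMP2 held 3 matches and FBLN1 held 2. Promoter windows of 300 bases were found for 7 of the 10 members, 9 windows in all, and 4 of the 9 held GGCGCC, against 19.2% of 35116 windows of that length. The 4 belonged to EFEMP2, FBLN1, FBLN2 and FBLN7, and EFEMP2 alone of them had a called probe set. These windows were rich in G and C, at 80.7% in EFEMP2 and 78.0% in FBLN1, and a match describes the letters only. The shorter SMAD box GTCT, searched on both strands, was in 7 of the 9 windows and in 84.0% of all windows. The windows of EFEMP1, ELN and MFAP5 were not used here.

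FBLN1 encodes fibulin-1, which binds fibronectin and basement membrane proteins, and its transcript is spliced into several 3′ ends. It had the most probe sets of the family, 8, and 0 of them were called by limma (0 at an unadjusted p under 0.05). The brightest, 11757407_x_at, gave 6.92, 6.85 and 6.81 with BMP9, against 6.94, 7.07 and 6.92 in control. These values meet at one end and differ by -0.12 (95% interval -0.30 to 0.060), a sign that turned positive when arrays were scaled to their control probe sets. Over the 8 probe sets the differences ran from -0.17 to 0.17 and the intervals from -0.41 to 0.39, so all 8 lay inside a 1.5-fold change of the signal. The brightest carries the suffix for shared probes, and the part of other sequences in its values was not tested.

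FBLN2 encodes fibulin-2, a large fibulin that in rat liver marks portal fibroblasts. Probe set 11755802_a_at gave 7.06, 7.05 and 7.11 with BMP9, against 7.10, 7.11 and 7.13 in control, so the groups overlapped within a narrow range. The difference was -0.04 (95% interval -0.20 to 0.12, positive with either control scaling), and the dimmer FBLN2 probe set differed by -0.04 as well (95% interval -0.27 to 0.19).

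FBLN5 encodes fibulin-5, which binds elastin, integrins and lysyl oxidase-like enzymes, and it had 1 probe set. It stood at 4.33, 4.44 and 4.61 with BMP9, against 4.32, 4.37 and 4.21 in control. The lowest BMP9 value lay among the control values, and the difference of 0.16 (95% interval -0.045 to 0.36) was not called. FBLN7 encodes fibulin-7, a cell adhesion protein first described in teeth. Its brightest probe set gave 5.10, 5.25 and 5.32 with BMP9, against 5.24, 5.10 and 5.05 in control, a difference of 0.10 (95% interval -0.10 to 0.29). That probe set carries the suffix for shared probes as well. The dimmest, 11726223_a_at, was the most variable FBLN7 probe set with BMP9, at 3.71, 4.29 and 4.38, around control values of 4.09, 4.06 and 4.05.

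The fibrillin genes FBN1 and FBN2 encode the microfibril backbone, FBN1 throughout life and FBN2 mainly in the embryo. FBN1 had 5 probe sets, of which 11754368_a_at was the brightest, at 4.22, 4.22 and 4.22 with BMP9, against 4.35, 4.18 and 4.16 in control. The BMP9 values lay inside the control range, and the difference was -0.01 (95% interval -0.19 to 0.17). The most negative FBN1 difference, -0.26 (95% interval -0.56 to 0.029), belonged to 11720507_at, whose groups averaged 1.86 ± 0.26 with BMP9 and 2.12 ± 0.18 in control (SD, n = 3 each). In FBN1, 3 of 5 probe sets stayed under 2.43 on every array, and in FBN2 2 of 5.

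FBN2 was brightest in 11762595_at, at 3.20, 3.28 and 3.34 with BMP9, against 3.13, 3.86 and 3.42 in control. Control replicate 2 stood above the other arrays there, and the difference was -0.20 (95% interval -0.53 to 0.14). Without that array it was -0.0021. The remaining 4 FBN2 probe sets differed by 0.03 to 0.08. At these levels a change in either fibrillin transcript may not have been measurable.

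ELN encodes tropoelastin, the soluble precursor of the fibre core. Its brightest probe set, 11749679_x_at, gave 7.11, 7.05 and 7.13 with BMP9, against 7.10, 7.08 and 7.15 in control. The values interleaved, with a difference of -0.01 (95% interval -0.18 to 0.15). Probe set 11754442_x_at gave 5.08, 5.09 and 5.05 with BMP9, against 4.83, 4.99 and 4.80 in control. Those groups did not overlap, but the difference of 0.20 (95% interval 0.023 to 0.38) was not called (limma adjusted p = 0.383), and the third ELN probe set differed by 0.03. Both named ELN probe sets carry the suffix for shared probes, and the third does not. The part of other sequences in the values of the named ones was not tested.

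MFAP5 encodes MAGP-2, a small glycoprotein of microfibrils. Its brightest probe set gave 2.23, 2.60 and 2.37 with BMP9, against 2.32, 2.31 and 2.57 in control, values that interleaved. The 3 probe sets averaged 2.11 to 2.40 over the 6 arrays, and 2 of them stayed under 2.43 on every array. Probe set 11721844_a_at gave 2.16, 2.20 and 2.22 with BMP9, against 2.13, 2.12 and 1.86 in control, without overlap, and differed by 0.16 (95% interval -0.039 to 0.36). With values in the range of the background probe sets, MFAP5 RNA is not known to have been detected.

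Across the family, 1 of 37 probe sets was called higher and 1 lower, beside 0.134% called higher and 0.276% called lower over all probe sets. By genes, each represented by its brightest probe set, limma called 0 of 10 higher (0 at an unadjusted p under 0.05, and 1 with probe sets averaged) and 1 lower, EFEMP1, beside 0.232% and 0.452% over all genes. Since EFEMP1 led to the choice of the family, nothing is read from these shares. Groups that did not overlap were found in 4 probe sets with higher BMP9 values (10.8%, against 9.09% of all probe sets) and in 1 with lower ones (2.7%, against 8.17%). The median difference was 0.02 over the 37 probe sets and 0.01 over all probe sets. Of the 26 uncalled probe sets that averaged above 2.43, 25 had 95% intervals inside a 1.5-fold change of the signal in either direction, the exception being 11728352_x_at of EFEMP2. The other 9 averaged at or under 2.43. All 9 had intervals inside that change too, and these intervals set no limit on a change in the transcript. The median SE was 0.0937 over the 37 probe sets and 0.0915 over all probe sets, so narrow intervals were not particular to the family. The share of all probe sets with such intervals is not given here.

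**Figure D3:**
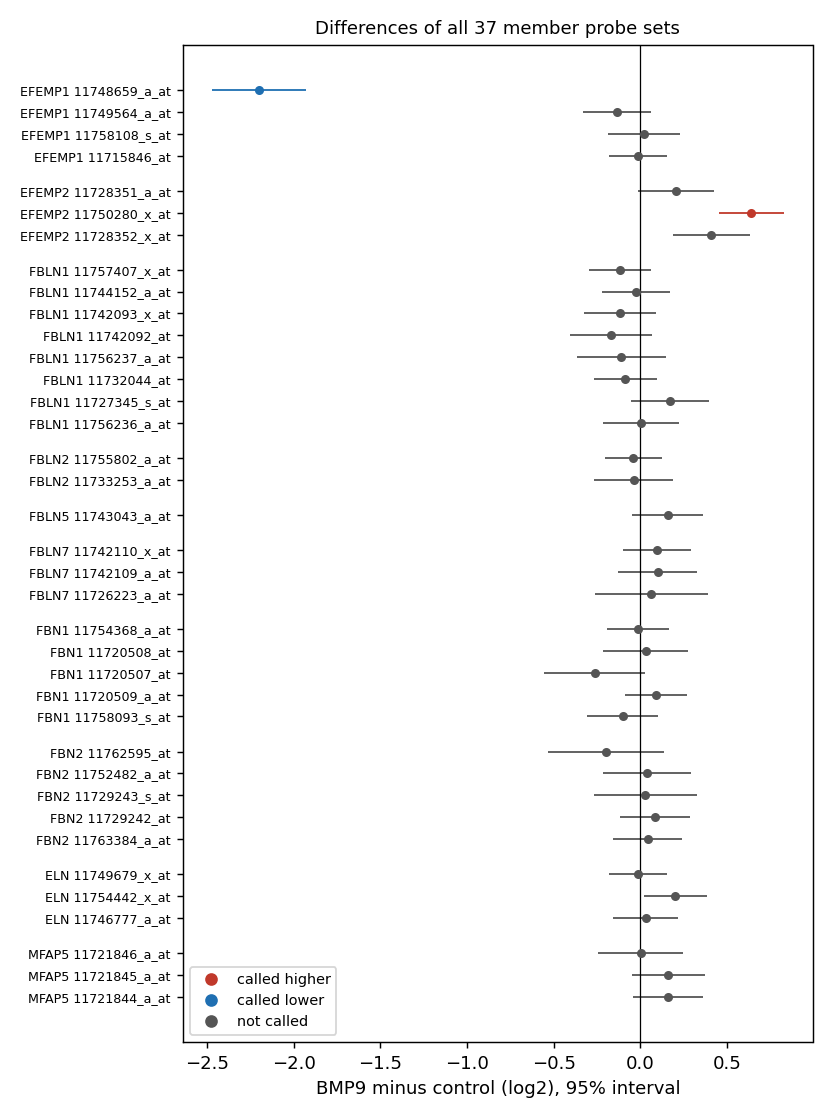
Difference, BMP9 minus control (log2, x axis), of all 37 probe sets with limma's 95% interval, by gene. EFEMP1 11748659_a_at lies at -2.20 and EFEMP2 11750280_x_at at 0.64, and the 35 others lie between -0.26 and 0.41.

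**Figure D4:**
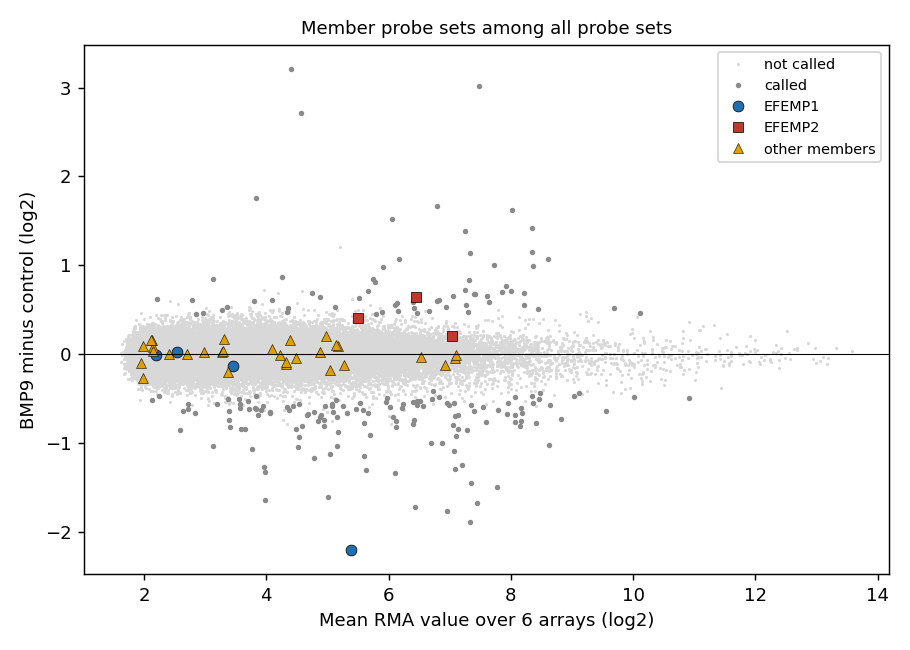
Mean RMA value over the 6 arrays (log2, x axis) and difference, BMP9 minus control (log2, y axis), of 49293 probe sets, with the members in colour. The called EFEMP1 probe set is the lowest point of the plot, at -2.20, and the members apart from EFEMP1 and EFEMP2 lie between -0.26 and 0.20.

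The array's spiked-in controls bear on the small differences. The hybridisation controls averaged 10.0, 9.87 and 9.94 with BMP9, against 10.2, 10.1 and 10.2 in control, and the poly-A controls 5.83, 5.62 and 5.39 with BMP9, against 6.09, 6.22 and 6.13 in control (log2). Scaling the arrays to the hybridisation controls moved the median difference of all probe sets to 0.22, and scaling to the poly-A controls moved it to 0.54. EFEMP1 11748659_a_at then differed by -1.99 and -1.67, and EFEMP2 11750280_x_at by 0.85 and 1.17. The 9 members other than EFEMP1 had positive differences in their brightest probe sets with poly-A scaling, between 0.33 and 0.74, around a median that had itself moved to 0.54.

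Genes whose profile over the 6 arrays was nearest to that of EFEMP1 were sought among 6743 genes with a mean log2 value of at least 5. The nearest 5, by Euclidean distance between profiles centred on their own means, were MAF (distance 0.63), JADE1 (0.74), DIPK1A (0.77), RUNX1T1 (0.92) and CAPN6 (1.18). MAF is a transcription factor, JADE1 a subunit of a complex that acetylates histones, RUNX1T1 a corepressor and CAPN6 a member of the calpain family. DIPK1A, a divergent protein kinase domain gene, resembled EFEMP1 in its spread too, with 4.59, 4.17 and 3.84 on the BMP9 arrays, against 5.80, 5.85 and 5.76 on the control arrays. The 5 genes were called lower by their brightest probe sets, with differences of -1.89 to -1.34. With the probe sets of each gene averaged they were still called, at smaller differences. These were -0.93 in MAF, -0.49 in JADE1, -0.70 in DIPK1A, -0.60 in RUNX1T1 and -0.72 in CAPN6, beside -0.58 in EFEMP1. Direction and spread both enter the distance, so this likeness follows from the search. EFEMP1 was chosen for the most negative difference of all probe sets, so none of the 5 could fall further by its brightest probe set. The profiles share the 6 arrays, and the likeness is a description.

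Other genes of elastic fibre biology were counted in 4 lists, each gene by its brightest probe set. Over all genes, 0.232% were called higher and 0.452% lower. The share of all genes at an unadjusted p under 0.05 is not given here, so nothing is read from the unadjusted counts. Among 14 other microfibril and elastic fibre proteins, limma called 0 higher and 0 lower (3 and 0 at an unadjusted p under 0.05), with a median difference of 0.06. LTBP1, which tethers latent TGF-beta to fibrillin, stood at 4.89, 4.92 and 4.79 with BMP9, against 4.65, 4.55 and 4.50 in control, and differed by 0.30 (95% interval 0.13 to 0.47, limma adjusted p = 0.142). FBN3, the third fibrillin gene, differed by 0.29 (95% interval 0.034 to 0.54). Neither was called, although neither pair of groups overlapped. The 5 LTBP1 probe sets differed by -0.10 to 0.30, so the value given is the most positive of them.

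Of 15 genes for elastin cross-linking and fibre assembly, limma called 0 in either direction (0 and 0 at an unadjusted p under 0.05), and all differences lay between -0.17 and 0.11. LOX, the cross-linking lysyl oxidase, averaged 6.46 ± 0.019 with BMP9 and 6.46 ± 0.018 in control (SD, n = 3 each). LOXL1, a lysyl oxidase-like enzyme that binds fibulin-5, averaged 9.30 with BMP9 and 9.41 in control, a difference of -0.11 (95% interval -0.28 to 0.048). LOXL2, another enzyme of this family, differed by -0.17 (95% interval -0.37 to 0.041). In LOXL1 and in this LOXL2 probe set all BMP9 values lay below all control values. The 4 LOXL2 probe sets differed by -0.19 to 0.22.

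Among 17 elastases, inhibitors and genes of the elastin receptor complex, limma called 2 lower and 0 higher (4 and 4 at an unadjusted p under 0.05). MMP2, a gelatinase that also cleaves elastin, stood at 6.58, 6.49 and 6.66 with BMP9, against 7.84, 7.77 and 7.83 in control, and fell by 1.24 (SE 0.076, limma adjusted p = 2.79e-05). Averaging its 4 probe sets ended the call (-0.28, limma adjusted p = 0.120). MMP14, the membrane protease that activates MMP2, averaged 6.18 ± 0.055 with BMP9 and 6.76 ± 0.22 in control (SD, n = 3 each) and fell by 0.58 in the fit over genes (limma adjusted p = 0.0431). In the fit over probe sets 0 of its 4 probe sets were called, with an adjusted limma p of 0.0545 for this one. The call over genes ended whichever of the 6 arrays was left out, with adjusted p from 0.0593 to 0.175. It also ended with the replicate number as a block (limma adjusted p = 0.0670), with poly-A scaling (-0.05) and with its 4 probe sets averaged (-0.24). The median difference of this list was 0.04.

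Among 15 matrix partners of fibulins and fibrillins, limma called 0 (4 higher and 3 lower at an unadjusted p under 0.05), with a median of 0.04. LAMC1, a laminin chain, differed by -0.44 (95% interval -0.64 to -0.25, limma adjusted p = 0.0582). VCAN, the versican gene, whose product binds fibulin-1 and fibrillin-1, differed by 0.31 (95% interval 0.13 to 0.49). Both values are the extremes of their gene. The 5 LAMC1 probe sets differed by -0.44 to 0.026 and the 9 VCAN probe sets by -0.13 to 0.31. Over all genes the median difference was 0.01.

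**Figure D5:**
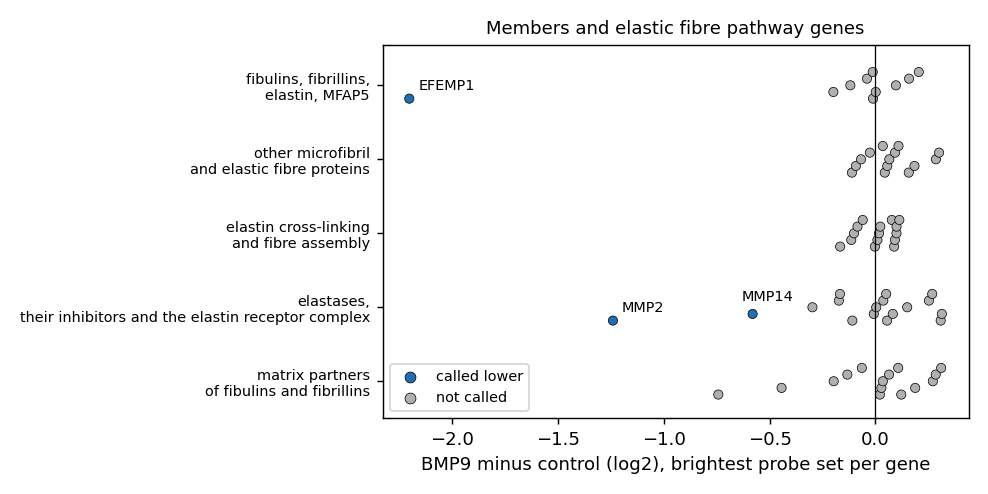
Difference, BMP9 minus control (log2, x axis), of the 10 members and of the genes of 4 elastic fibre lists, 1 point per gene from its brightest probe set. EFEMP1 at -2.20, MMP2 at -1.24 and MMP14 at -0.58 were called lower in the fit over genes, and 0 genes plotted were called higher.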

How the data were processed

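Biotin-labelled cRNA from each of 6 LX-2 samples went onto its own array, per the labels' protocols. The deposited table gives the authors' RMA value of every probe set on a log2 scale. RMA, robust multi-array averaging, is named in the submitters' processing notes, while settings such as its software version were not given in the sources used here. Log base 2 is what RMA normally returns, and the values span a range that fits it. Because RMA removes background and gives all arrays the same distribution, changes common to most transcripts are hidden. The number of arrays limits the precision.

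Of 49395 probe sets, 102 array controls were left out. Of the rest, 44988 carried 1 gene symbol in the platform annotation, 1832 several and 2473 none, and the last groups were kept in the probe set fit without being named. The contrast of BMP9 with control was fitted in limma 3.58.1 under R 4.3.3 (lmFit and eBayes, no covariate), once over 49293 probe sets and once over 18132 genes, with 1 probe set a gene, the brightest by mean over the 6 arrays among those with a single symbol. Benjamini-Hochberg adjustment ran over all features, and called means an adjusted p under 0.05. No filter on dim probe sets was used. Differences are BMP9 minus control, intervals are limma's 95% intervals, and errors of group means are SDs. The fit was tested on simulated data. Array medians were 3.55 to 3.57, Pearson's r between arrays, across probe sets, was 0.990 to 0.994, and no pair of arrays shared more than 0.00406% of its values, so each was counted as 1 sample.

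The members and lists were chosen with earlier results of these data known. All members were named. From each of the 4 elastic fibre lists, every called gene and the 2 genes with the smallest p were named. LOX and the cell type markers given by name were picked after their values were seen. ADAMTSL6 is THSD4 in the annotation, and 1 hepatocyte marker of 5 was not used here. Alternatives are given in the closing section. Replicate numbers, shared between groups in the labels, were not treated as pairs, since same-numbered arrays did not deviate together. Promoter sequences came from RefSeq (GRCh38.p14), and figures were drawn with matplotlib 3.10.9.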

Additional observations from a re-analysis of the deposited data

How the results depend on the processing

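Of 17 alternatives, 15 gave a difference for EFEMP1, and in these it was called lower, from -2.36 to -0.58, the last with probe sets averaged. The alternative with each group's own variance called 0 of 49293 probe sets and 0 genes, members included (2 higher and 1 lower member probe sets at an unadjusted p under 0.05). It estimated each variance from 3 arrays and called nothing at all, so the lack of a call there says little about a member. A minimum mean log2 value of 7 kept 3 member probe sets and 3 member genes, with 0 called in either direction. It removed both probe sets called on the deposited scale, 11748659_a_at of EFEMP1 (mean 5.39) and 11750280_x_at of EFEMP2 (mean 6.45). The number of member probe sets called higher, 1 on the deposited scale, was 2 with a minimum of 5, 0 without probe sets that have shared probes, 9 with hybridisation scaling and 34 with poly-A scaling. Leaving out single arrays gave 0 to 1 higher, with 0 only without BMP9 replicate 3, and 1 to 1 lower. The number of member genes called higher was 0 on the deposited scale and without any single array, 2 with hybridisation scaling, 8 with poly-A scaling and 1 with probe sets averaged, and member genes called lower stayed at 1 without any single array. Under these 2 scalings 10445 and 45775 of all probe sets were called higher, so such calls say little about a member.

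Poly-A scaling turned the difference of the brightest probe set to 0.41 in FBLN1, 0.49 in FBLN2, 0.52 in FBN1 and 0.52 in ELN, each called higher there against a negative, uncalled difference on the deposited scale; the added shift is the scaling's own construction. With the replicate block, 1 member probe set was called higher and 1 lower, and 0 genes higher and 1 lower, as without it; MMP14 lost its call, and calls over all probe sets numbered 44 higher and 116 lower, beside 66 and 136 without the block. Same-numbered BMP9 and control arrays had deviations correlated at 0.0038, 0.046 and -0.021. An intensity trend with a robust prior called 153 probe sets higher and 276 lower, and the minimum of 5 called 181 and 268. Depth is not defined for arrays. Here 9 of 37 member probe sets averaged under the highest of the background values quoted, 2.43, and a lack of change in those (3 of MFAP5, 3 of FBN1, 2 of FBN2 and 1 of EFEMP1) is not shown. More may lie at background if their probes are rich in G and C.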
